A study of Mus musculus with 60 samples.

Results

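The genes of the proteasome were described in bulk RNA-seq of mouse brain. The 46 table entries whose gene name starts with Psma, Psmb, Psmc, Psmd or Psme were taken, with 45 different symbols, out of 47574 entries kept, and 4 names that mark pseudogenes were left out. Psmd5 had 2 entries, of which the second stayed near 0 in every library. The filter on low values, a mean rescaled FPKM of at least 0.5, was passed by 43 entries. The second Psmd5 entry, the testis subunit Psma8 and the thymus subunit Psmb11 did not pass it.

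The series held 60 libraries of rRNA-depleted total RNA, labelled as cortex or striatum of c57BL-6N mice aged 3 months. In the Δ12 line, Cas9 and a repair template had removed a part of exon 12 of Htt, so that a new splice donor within that exon gives the shortened Δ12 isoform of huntingtin. The KO line came from a founder in which repair was imprecise and the normal splice donor was lost. The 10 labelled groups were +/+, Δ12/+ and Δ12/Δ12 of the Δ12 line and +/+ and KO/+ of the KO line in each labelled tissue, with 3 libraries labelled male and 3 labelled female in each. In all groups no cell type was sorted, and in such bulk tissue fewer cells of a type and less RNA per cell cannot be told apart.

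The labels did not match the expression of defining genes. Libraries were therefore also divided by the cortical glutamate transporter Slc17a7, with 30 cortex-like libraries above 100 FPKM and 30 striatum-like libraries below it. After rescaling, Slc17a7 lay between 104 and 197 in cortex-like and between 5.6 and 69.6 in striatum-like libraries, while the striatal dopamine receptor gene Drd2 lay between 0 and 15.9 and between 34.8 and 71.3. A division by Drd2 placed 0 libraries differently. Of the 30 libraries labelled cortex, 15 were striatum-like, and of the 30 labelled striatum, 15 were cortex-like. Under both tissue labels, cortex-like expression was found in the Δ12-line groups +/+ and Δ12/+ and in Δ12/Δ12 libraries labelled male. Striatum-like expression was found in Δ12/Δ12 libraries labelled female and in every KO-line library. The female-specific transcript Xist was below 1 FPKM in 15 of 30 libraries labelled female and above it in 15 of 30 labelled male. Htt itself, the targeted gene, had a median of 17.5 in the labelled striatum of KO-line +/+ mice (16.8 to 20.7) and of 16.8 in KO/+ mice (12.7 to 19.7), with overlapping ranges. The number of reads per library was not recorded in the files.

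The proteasome degrades proteins that carry chains of ubiquitin. Its 20S core is a barrel of alpha rings, which gate the entrance, and beta rings, whose subunits Psmb5, Psmb6 and Psmb7 cut peptide bonds and can be replaced by the interferon-inducible Psmb8, Psmb9 and Psmb10. The 19S particle, with a base of unfolding ATPases and a lid that removes ubiquitin, caps the core, and the PA28 and PA200 activators can bind in its place.

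The region upstream of the start is shown for the core subunits with the largest differences between the library sets, Psma7 and Psmb5, and for the activator gene Psme3, which was higher in striatum-like libraries. Each run gives 250 bases upstream of the RefSeq start on GRCm38.p6, 5′ to 3′ on the gene's strand. Psma7 is at chr2:180042465-180042714, minus strand, Psmb5 at chr14:54617996-54618245, minus strand, and Psme3 at chr11:101315963-101316212, plus strand. Capitals mark the letters CCAAT and TGANNNNGC, searched on both strands.
Psma7: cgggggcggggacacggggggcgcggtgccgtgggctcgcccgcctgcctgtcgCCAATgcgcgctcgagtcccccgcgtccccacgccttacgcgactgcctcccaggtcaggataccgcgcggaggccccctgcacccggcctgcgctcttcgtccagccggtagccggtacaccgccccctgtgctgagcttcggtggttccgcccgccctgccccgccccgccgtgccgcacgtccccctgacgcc
Psmb5: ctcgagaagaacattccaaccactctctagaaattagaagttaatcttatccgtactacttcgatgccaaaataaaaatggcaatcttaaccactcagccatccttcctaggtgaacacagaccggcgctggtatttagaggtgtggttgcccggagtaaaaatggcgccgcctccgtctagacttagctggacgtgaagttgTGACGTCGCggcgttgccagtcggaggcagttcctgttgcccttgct
Psme3: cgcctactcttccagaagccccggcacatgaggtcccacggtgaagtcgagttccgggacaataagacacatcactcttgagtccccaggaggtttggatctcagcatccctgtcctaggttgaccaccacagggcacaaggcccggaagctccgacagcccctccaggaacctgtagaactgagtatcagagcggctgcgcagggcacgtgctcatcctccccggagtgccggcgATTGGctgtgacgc
In the windows from 250 bases before to 50 after each start, CCAAT was found in 36.6% of 41 promoters of 38 members and in 37.4% of 32851 promoters of all genes. TGANNNNGC, the loose form of the site of Maf-dimer factors such as Nfe2l1, was found in 58.5% and 41.3%. Its strict form TGACTCAGC was found in 0 of the 41 and in 0.454% of all. The GC box GGGCGG was found in 56.1% and 35.7%, and on both strands each of these letters may overlap another. These are matches of letters in a window, and members with alternative starts share bases.

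Several members have near-identical copies in the genome, between which reads can be split. Stretches of 90 coding bases of Psma3, Psma5, Psme2 and Psmb5 are shown beside a copy because FPKM was also listed at the copies. Whether the reads behind it came from the copy or the member is not known. Capitals mark bases that differ between the members of a pair, and sequence is from GRCm38 with GENCODE M21 annotation. The stretch of Psma3 is at chr12:70983320-70983409, plus strand, and that of its processed pseudogene Gm13835 at chr6:31142552-31142641, minus strand. The stretch of Psma5 spans 2 exons at chr3:108272315-108279761, plus strand, and that of Gm8394 lies at chr10:85314154-85314243, plus strand. Psme2 is at chr14:55588049-55588276, minus strand, over 2 exons, and the single-exon Psme2b at chr11:48945576-48945665, minus strand. Psmb5 is at chr14:54616555-54616644, minus strand, and Gm3375 at chr7:3181469-3181558, plus strand.
Psma3: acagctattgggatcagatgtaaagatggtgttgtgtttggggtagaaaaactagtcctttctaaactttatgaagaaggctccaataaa
Gm13835: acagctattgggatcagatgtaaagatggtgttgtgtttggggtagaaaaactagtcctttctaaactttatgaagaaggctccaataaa
Psma5: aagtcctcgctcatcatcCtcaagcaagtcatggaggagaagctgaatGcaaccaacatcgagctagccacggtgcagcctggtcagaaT
Gm8394: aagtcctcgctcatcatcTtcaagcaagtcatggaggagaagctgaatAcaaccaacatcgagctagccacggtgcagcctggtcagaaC
Psme2: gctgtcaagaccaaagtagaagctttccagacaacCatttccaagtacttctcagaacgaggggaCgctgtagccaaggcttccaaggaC
Psme2b: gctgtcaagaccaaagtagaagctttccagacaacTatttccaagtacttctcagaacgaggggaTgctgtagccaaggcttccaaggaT
Psmb5: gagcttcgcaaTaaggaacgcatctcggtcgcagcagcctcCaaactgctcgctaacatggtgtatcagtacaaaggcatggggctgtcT
Gm3375: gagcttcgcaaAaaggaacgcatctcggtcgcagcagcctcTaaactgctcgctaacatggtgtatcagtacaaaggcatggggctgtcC
The pairs differed at 0, 3, 3 and 3 bases in these stretches. Over the aligned coding sequence they differed at 0 of 662, 8 of 723, 5 of 717 and 8 of 792 bases.

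The genes of the 20S core were higher in cortex-like than in striatum-like libraries, of which Psma4 and Psmb2 turned below 0 when the deviation of their transcript length class was taken off. Levels are FPKM after median-of-ratios rescaling of each library, and differences are between means of log2(rescaled FPKM + 0.5) over 30 and 30 libraries. As the library sets were read from the data and are not labelled groups, these values are a description without a test. The alpha subunit Psma7 (chr2:180036373-180042433) had 215, 347 and 552 as lowest, median and highest level in cortex-like libraries and 29, 36.2 and 41.5 in striatum-like ones. Its difference was 3.30 on the log2 scale, the largest of all members, with SDs of 0.30 and 0.12. Every cortex-like library lay above every striatum-like one.

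The other alpha subunits differed by less. Psma6 had 108, 159 and 227 against 27.1, 32.6 and 35.5, a log2 difference of 2.31. Psma1 and Psma2 followed with differences of 1.58 and 1.25 and medians of 72 against 24 and 76.2 against 32. For Psma4 the median was 18.6 against 11.1, a difference of 0.76 with ranges that did not overlap, and for Psma3 13.1 against 7.24, with ranges that did. Psma5 was the lowest alpha subunit, with a median of 2.14 against 0.587, and its value was imprecise, since the authors' confidence interval had a median half-width of 65.4% of the level.

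In the beta ring all 7 genes were higher in every cortex-like library, beside 16.9% of all entries that passed the filter. Psmb5 (chr14:54614120-54617995), the chymotrypsin-like subunit, had 118, 161 and 268 against 17.1, 23.6 and 27.7. This was a log2 difference of 2.82 with SDs of 0.27 and 0.19. The caspase-like subunit Psmb6 had 224, 319 and 496 against 51.8, 60.6 and 71.8, and was the highest beta subunit in both sets. The trypsin-like subunit Psmb7 had 49.4, 69.9 and 87.1 against 23.1, 27.3 and 30.2, a difference of 1.35 that was less than that of Psmb5 or Psmb6. The noncatalytic Psmb1, Psmb2, Psmb3 and Psmb4 differed by 1.74, 0.96, 1.60 and 2.07, with Psmb3 the lowest beta subunit at a median of 10.9 against 3.51. Summed over the 14 constitutive core genes, the level was 1163, 1639 and 2181 in cortex-like and 332, 365 and 392 in striatum-like libraries.

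Of the inducible subunits Psmb10 had the highest level, below that of the constitutive Psmb7 in both library sets. Psmb10, which can replace Psmb7, had 20.3, 31.2 and 46.3 in cortex-like and 2.51, 4.38 and 6.73 in striatum-like libraries, a log2 difference of 2.71 with SDs of 0.22 and 0.29. Psmb8 had medians of 2.34 and 0.879, and Psmb9 of 1.71 and 0.453, both with overlapping ranges and with the gene listed at 0 in a cortex-like library. The summed level of the 3 inducible genes was 23.4, 35.3 and 52 against 3.18, 5.69 and 8.07. Divided by the sum of Psmb5, Psmb6 and Psmb7, it was 0.0485, 0.062 and 0.0787 against 0.03, 0.0529 and 0.0779, so that the shares overlapped. Psma8 and Psmb11 had highest levels below 1.

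The 19S particle was divided in itself. Of its 17 base and lid genes 8 were higher in every cortex-like library, against 13 of 14 constitutive core genes and 16.9% of entries. The median difference was 0.66, against 1.59 in the constitutive core. Measured from the median of the transcript length class, it was 0.33, against 0.95. In the base, the ATPase gene Psmc3 had 69.4, 92.4 and 137 against 24.1, 28.3 and 34.1, a difference of 1.69 and the highest level of the ATPases in cortex-like libraries. Psmc5 differed by 0.92, Psmc4 by 0.84, Psmc2 by 0.66 and Psmc6, the lowest ATPase, by 0.64, while Psmc1 had medians of 31.1 and 30.4. The ubiquitin receptor Psmd4 had 64.1, 79.7 and 107 against 23.9, 27.7 and 35, without overlap. The large scaffold subunits Psmd1 and Psmd2 stood apart from it, with Psmd2 at 27.4, 30.8 and 37.6 against 27.9, 32.7 and 34.9 and differences of −0.14 and −0.06, which were above 0 with FPKM as deposited.

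In the lid, Psmd13 was the most different gene, with 64, 86.5 and 129 against 13.9, 17.6 and 23.5, a difference of 2.36. Psmd8 differed by 1.5, the deubiquitinase Psmd14 by 0.93 (26.9, 37.5 and 66.7 against 17, 20.3 and 24.3) and Psmd12 by 0.69, each without overlap. Psmd7, Psmd11 and Psmd6 differed by 0.55, 0.29 and 0.04 with overlapping ranges. Psmd3 went the other way, with 21.2, 25.2 and 29.9 against 24, 30 and 33.8, though not with FPKM as deposited. It was the highest lid gene in striatum-like libraries, where Psmd13 was the highest in cortex-like ones. Summed over base and lid, the level was 637, 725 and 930 against 368, 394 and 417.

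Of the chaperones that assemble the base, Psmd10 (gankyrin) differed by 1.92 without overlap, with medians of 16.9 and 4.31, and Psmd5 and Psmd9 by 0.65 and 0.68 with overlap. The activators moved in opposite directions. Psme1, a subunit of the cytoplasmic PA28, had 21.7, 28.5 and 38.3 against 6.24, 9.08 and 13. Its partner Psme2 had medians of 2.11 and 0.935, with a median half-width of the authors' interval of 92.1%, and its copy Psme2b had 20.9 and 6.84. The nuclear PA28 gene Psme3 had 7.31, 11 and 21 in cortex-like and 17.6, 21 and 25.2 in striatum-like libraries, a log2 difference of −0.85 with SDs of 0.29 and 0.11. Psme4, which encodes PA200, had 3.39, 4.66 and 9.04 against 5.8, 9.25 and 12.2, a difference of −0.86. The ranges of both overlapped. With the deviation of the transcript length class taken off, Psme1 differed by 0.25 and Psme2b by 0.54. Psme2 then differed by −0.25, Psme3 by −0.69 and Psme4 by −0.03, and the ranges of all these activators overlapped. Psmc3ip, a meiotic recombination factor that shares only the start of its name, had medians of 1.06 and 0.843.

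**Figure D1:**
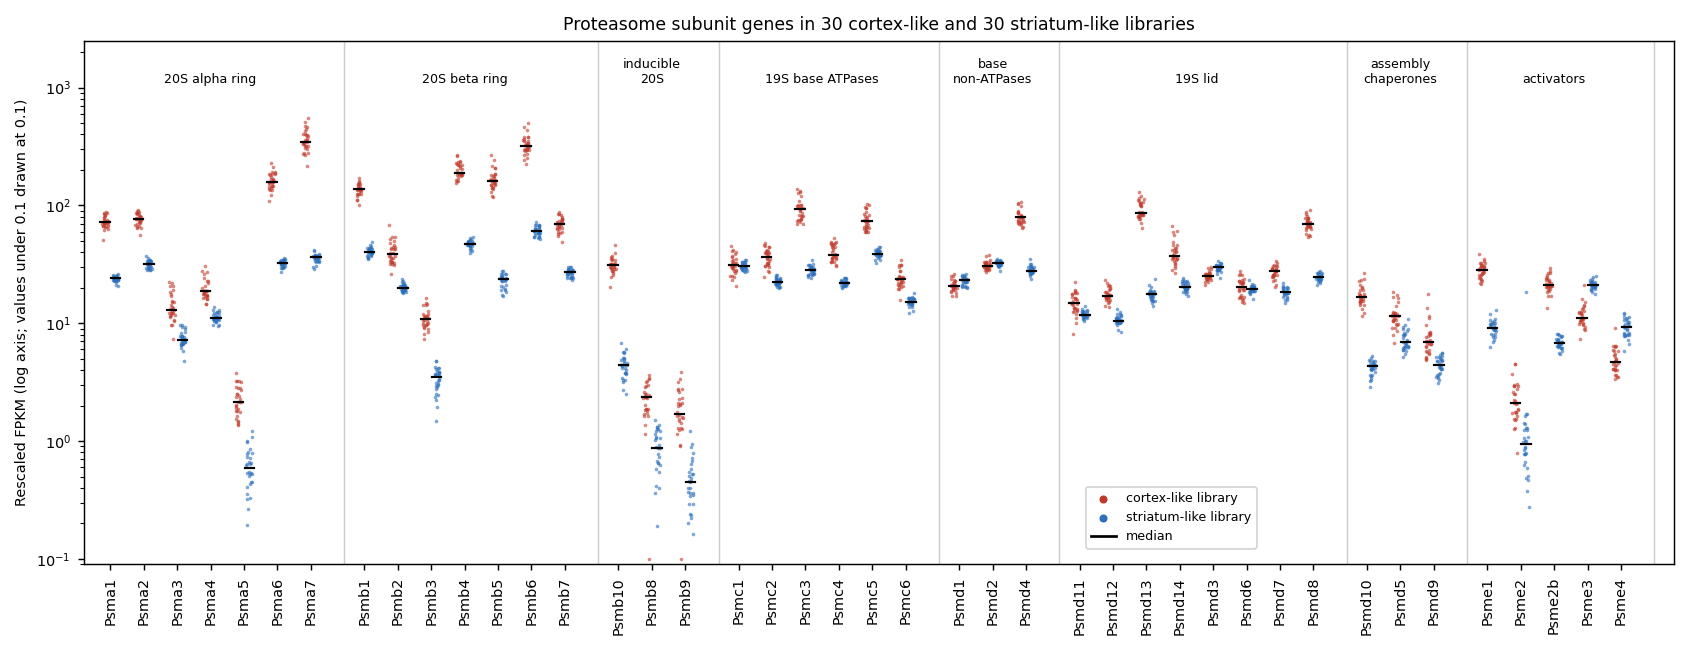
Level of 42 proteasome entries in each library (points, rescaled FPKM on a log axis), by particle, with the median of 30 cortex-like and 30 striatum-like libraries as a bar; Psmc3ip and the entries that did not pass the filter are not drawn. All 7 beta-ring genes separate, beside 16.9% of all entries higher in every cortex-like library. In the transcript length classes of these 7 genes the share was 45.1%, 42.0% and 26.0%. Psmc1, Psmd1, Psmd2 and Psmd6 lie level, and Psme3 and Psme4 are higher in striatum-like libraries.

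In all, 25 of the 43 members were higher in every cortex-like than in every striatum-like library, and 0 were lower in every one. Of the 16076 entries that passed the filter, 16.9% were higher in every cortex-like library and 19.3% lower, 36.2% in all. The median difference was 0.95 over members, with 38 above 0 and 5 below, and −0.06 over all entries. With FPKM as deposited, the median over all entries was 0.25, and Psmd1, Psmd2 and Psmd3 turned to 0.23, 0.31 and 0.14. With quantile normalization 18 members were higher and 2 lower without overlap, beside 14.3% and 20.6% of entries. Psmc1 and Psmd6 then turned to −0.39 and −0.25.

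Transcript length moved with these differences. Over all entries the median difference fell from 1.28 at lengths of 500 to 750 bases to −0.84 above 6000 bases, with a Spearman correlation of −0.46 over 12985 entries and of −0.66 over the 43 members. The points share libraries, and entries are not independent replicates. Core subunits have short transcripts, with a median of 1120 bases in the constitutive core and 1591 in base and lid, while Psme4 has 6491. Measured from the median of its length class, the median member differed by 0.58, and 34 of 43 lay above their class. The median level of short minus long transcripts (log2) was 0.413 to 1.19 in cortex-like libraries and −1.0 to −0.788 in striatum-like ones, so that length and tissue cannot be told apart between the library sets.

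When each library's median deviation for the length class was taken off, an alternative added after the data were seen, 14 members remained without overlap, beside 17.4% of entries higher in cortex-like libraries. They were Psma1, Psma2, Psma6 and Psma7, Psmb1, Psmb4, Psmb5 and Psmb6, the inducible Psmb10, the 19S genes Psmc3, Psmd4, Psmd8 and Psmd13, and the chaperone Psmd10. Psma7 then differed by 2.39, Psmb10 by 2.09 and Psmb5 by 1.77. Members below 0 numbered 9 in place of 5, and the core genes Psma4 and Psmb2 turned to −0.15 and −0.09. Psmc1, Psmd6, Psme2 and Psmc3ip also turned below 0, Psmd1 and Psmd2 turned above it, and Psme4 differed by −0.03.

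**Figure D2:**
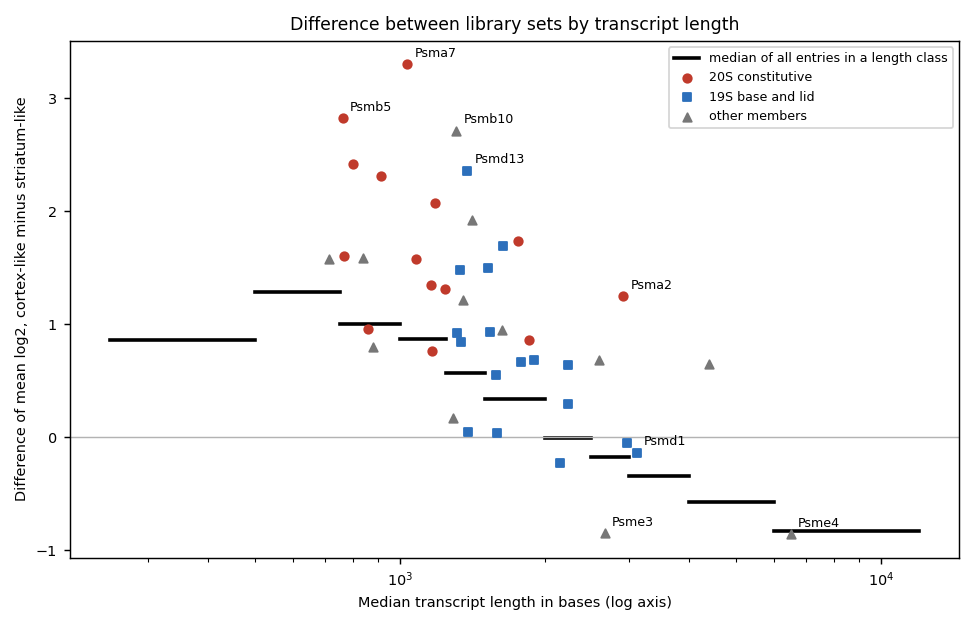
Difference of mean log2 between 30 cortex-like and 30 striatum-like libraries for each of the 43 members against median transcript length in bases (log axis), with black bars for the median of all entries in a length class. Psma7 at 3.30, Psmb5 at 2.82 and Psmb10 at 2.71 lie above the bars of their classes, Psme4 at −0.86 lies on its bar and Psme3 at −0.85 lies under it.

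FPKM was listed at copies of members as well. Of the members, 14 had a copy with at least 90% identity over at least 300 bases, 23 copies in all, and of these 10 had a median of at least 1 in cortex-like libraries, each with a lower median in striatum-like ones. The members Psme2 and Psme2b are counted among these 10 as copies of each other. Of all 16076 entries that passed the filter, 7726 had a difference of mean log2 above 0. The pseudogene Gm13835 had 78.9 and 33.7 as medians, above the 13.1 and 7.24 of Psma3, with which it shares 665 bases at 100%. Gm8394 had 49.5 and 13.1 and Gm12989 20.6 and 6.1, above Psma5. Gm4950 had 21 and 6.24, above Psmb3, and Gm3375 had 39.7 and 5.87, below Psmb5. For Psma3, Psma5, Psmb3 and Psme2 the level of the named gene alone is therefore uncertain, since how the authors assigned reads that match several places is not given in the sources used here. The same holds in part for Psmb5, Psma4, Psmd11 and Psmd2, whose copies had lower levels, as Gm6542 with 5.98 and 3.57 beside Psma4.

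**Figure D3:**
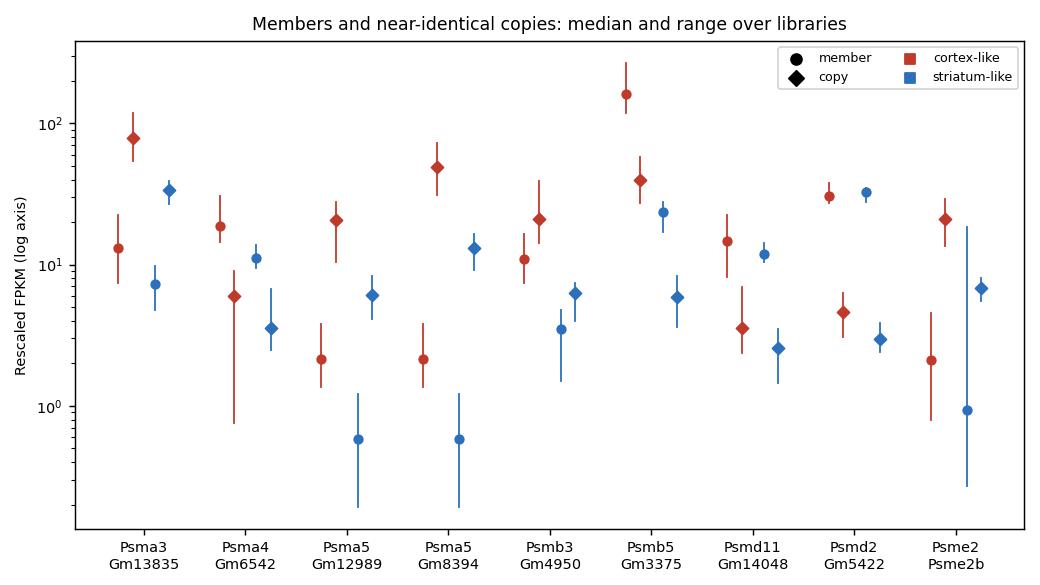
Median (symbol) and range (line) of rescaled FPKM on a log axis for 8 members and 9 copies in cortex-like and striatum-like libraries. The copies of Psma3, Psma5, Psmb3 and Psme2 lie above the members, those of Psma4, Psmb5, Psmd11 and Psmd2 below.

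Variation between libraries of one set was described by correlations between members. The median Pearson correlation between pairs of the 14 constitutive core genes was 0.46 over 30 cortex-like and 0.16 over 30 striatum-like libraries. For base and lid it was 0.23 and 0.21, for Psmb8, Psmb9 and Psmb10 it was 0.05 and 0.07, and between all entries it was near 0. The points share libraries, depth and scaling. With FPKM as deposited the core had 0.58 and 0.71, beside 0.087 and 0.24 for all entries. In cortex-like libraries the mean core level correlated with the short-minus-long measure at r = 0.85 (rho = 0.84, n = 30), and with the length class taken off the core's median correlation was 0.17.

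Genes that build or serve the proteasome but have other names were listed as well. Of 25 such factors, 6 were higher in every cortex-like library and 7 in every striatum-like one, beside 16.9% and 19.3% of all entries. Higher in cortex-like libraries were, among others, the core assembly chaperones Psmg1, Psmg3 and Psmg4 and the maturation factor Pomp, with differences of 1.3, 2.39, 2.10 and 1.35. The core assembly chaperone Psmg2 differed by 0.41 with overlapping ranges. Transcript length was not taken off here, and the median differences of the length classes of Psmg1 and Psmg2 were 1.00 and 0.87. Higher in striatum-like libraries were, among others, Nfe2l1, the transcription factor of proteasome genes, and Ddi2, the protease that activates it, with differences of −1.48 and −1.27. Nfe2l1 had 14.5, 19.6 and 26.5 against 46, 55.4 and 63.8. Of 10 genes of interferon response and antigen presentation 0 separated and of 6 ubiquitin and E1 genes 1, Uba6 at −0.99, where 36.2% of all entries did in either direction. The summed level of 6 microglial markers was 59.8 to 93.1 against 55.9 to 77.1. Of these 6, 1 was higher in every cortex-like library and 2 in every striatum-like one, beside 16.9% and 19.3% of entries. For 3 oligodendrocyte markers the sum was 211 to 385 against 449 to 743. Their part in the members' differences was not tested.

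The labelled comparisons were made with limma, 6 against 6 libraries, with labelled sex as a covariate, and p-values were adjusted by Benjamini-Hochberg over all entries of the fit. They measure the spread between these samples. The question of the genotype comparisons was whether the Δ12 or the KO allele changes expression. Between KO/+ and +/+ of the KO line, all striatum-like by expression, 0 of 43 members passed the threshold in the labelled striatum, where 8.17% of entries did. An unadjusted p under 0.05 was found for 3 members, beside 22.2% of entries. The nearest was the core gene Psma3, with 7.25, 8.32 and 9.66 in +/+ and 6.5, 6.81 and 7.86 in KO/+, a log2 fold change of −0.26 with overlapping ranges (limma, adjusted p = 0.0506). As given above, the level of Psma3 alone is uncertain because of its copy Gm13835. In the labelled cortex 0 of 42 members passed, beside 0.114% of entries, with 5 members and 14.1% of entries at an unadjusted p under 0.05. There Psma2 had 30.8, 33.4 and 34.4 against 28.3, 28.8 and 31.9, a log2 fold change of −0.16 (limma, adjusted p = 0.178).

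In the labelled striatum of KO/+ mice some genes of other lists passed, where 8.17% of all entries did. All 8 striatal markers were higher and all 3 oligodendrocyte markers lower, for instance Penk by 0.54 and Mag by −0.43 (limma, adjusted p = 0.00305 and 0.00268). Of 6 cortex markers 1 was higher. The median log2 fold change was 0.45 over the cortex markers and 0.46 over the striatal markers. Of 4 astrocyte markers 1 was lower, and of 4 neuronal markers 1 was higher and 1 lower. Of 25 proteasome factors 2 passed, a share near that of all entries. The shuttle factor Ubqln4 rose by 0.23 and the 19S-bound thioredoxin Txnl1 fell by 0.23 on the log2 scale (limma, adjusted p = 0.0287 and 0.0298). Their relation to the members' values was not tested.

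Between Δ12/+ and +/+, all cortex-like, 0 of 43 members passed in either labelled tissue, beside 0.00663% of entries in striatum and 0.053% in cortex. An unadjusted p under 0.05 was found for 3 and 2 members, beside 3.15% and 8.7% of entries. Psmb5 had 118, 174 and 241 in Δ12/+ against 140, 161 and 182 in +/+ of the labelled striatum, so that the groups overlapped.

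Between Δ12/Δ12 and +/+ the labelled group held both kinds of library. In the labelled striatum Psmb5 had 150, 156 and 184 in the 3 libraries labelled male, beside 140 to 182 in +/+, and 19.4, 23.7 and 24.3 in the 3 labelled female, within the range of the KO line. Psmb10 likewise had 28.6, 29.1 and 34.1 in those labelled male and 4.38, 4.79 and 5.73 in those labelled female. The sets of 3 did not overlap, whereas Psmd2 had 28.8, 31.7 and 33.4 under the male and 32.6, 32.8 and 33.5 under the female label. In the labelled cortex Psmb5 had 140, 148 and 172 under the male and 19.3, 22.9 and 24.3 under the female label. Psme3 had 7.31, 11.9 and 13.9 under the male and 19.7, 20 and 25.2 under the female label. Xist did not follow these labels. In the labelled striatum it was 21, 11 and 21.6 in the libraries labelled male and 41.7, 0.388 and 0.684 in those labelled female. In the labelled cortex it was 0.0196, 29.5 and 21.7 under the male and 30.6, 33.1 and 39.2 under the female label.

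**Figure D4:**
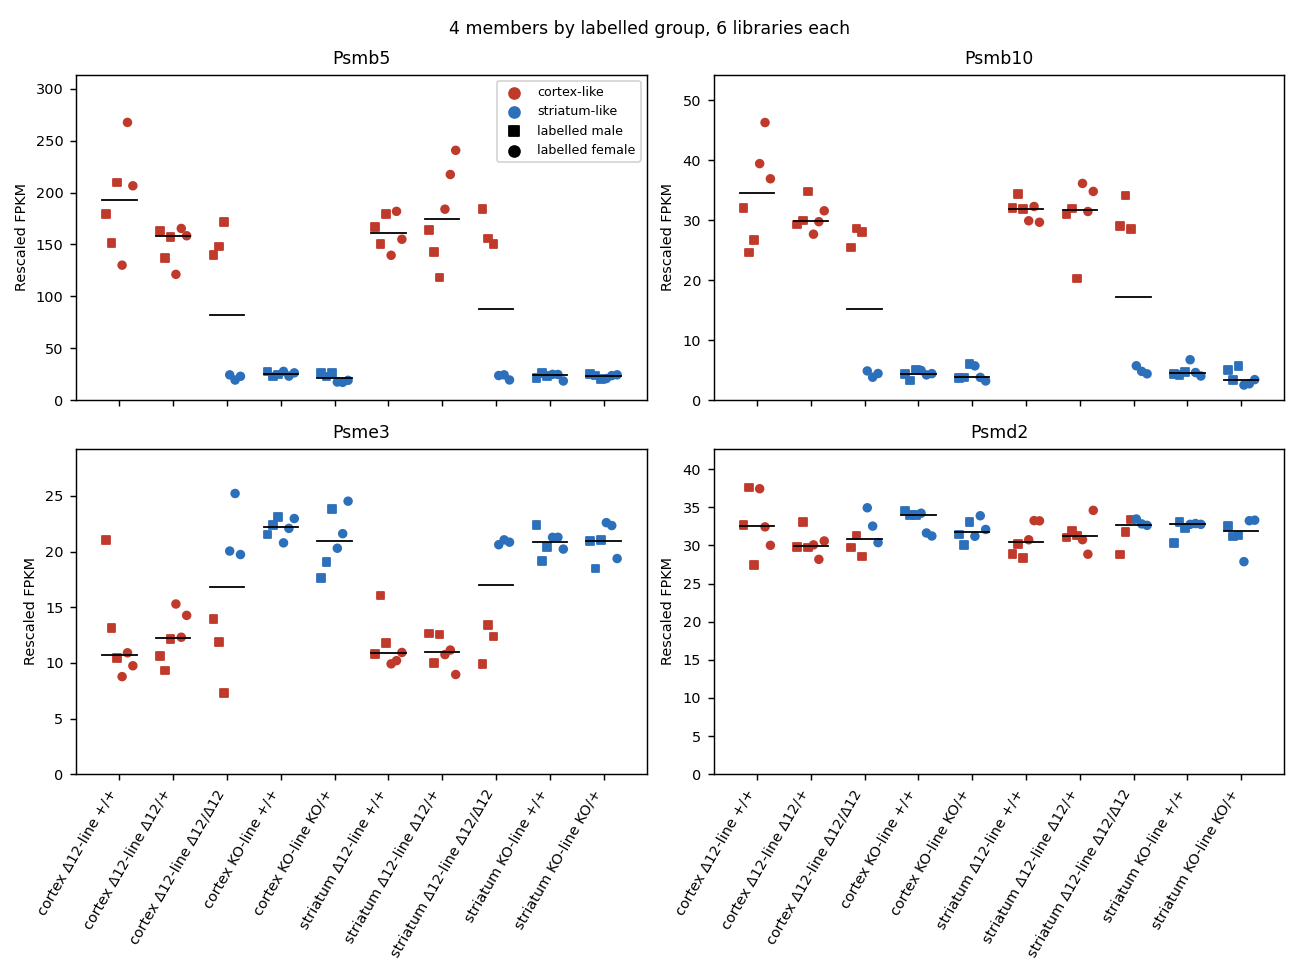
Rescaled FPKM of Psmb5, Psmb10, Psme3 and Psmd2 in the 10 labelled groups of 6 libraries, with colour for expression-defined tissue, squares for libraries labelled male, circles for those labelled female and a bar for the median. In both Δ12/Δ12 groups Psmb5 splits by labelled sex, at 140 to 184 under the male and 19.3 to 24.3 under the female label, while Psmd2 does not.

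Over these mixed groups 24 of 43 members were lower in the labelled striatum and 0 higher, where 13.8% of entries were lower and 14.9% higher. All 7 beta-ring genes, 5 of 7 alpha-ring genes, 5 of 6 ATPases, 3 of 8 lid genes, Psmd4, Psmb9, Psmb10 and Psmc3ip were among them, and of the 5 activators none was. The lowest adjusted p-values were those of the 19S ATPases Psmc4 (log2 fold change −0.70), Psmc3 (−1.22), Psmc5 (−0.69) and Psmc2 (−0.60), and of the core gene Psmb2 (−0.73), between 0.0234 and 0.0284 with limma. Psmc4 had 36, 43.7 and 53.4 in +/+ and 19.8, 26.5 and 37 in Δ12/Δ12, with ranges that overlapped. Psmb5 changed by −1.41 with an SE of 0.43 (limma, adjusted p = 0.0392). The 24 members became 9 without the filter on low values, beside 5.34% of entries. They became 0 without the sex covariate or with the replicate number as a block, beside 0.0582% and 0.0323% of entries. With the cortex-like libraries alone, or with expression-defined tissue as a covariate, 0 members passed as well, beside 0.0863% and 0.123% of entries. Psmb6 turned from −1.23 to 0.028. In that comparison Slc17a7 fell by 1.52 and Drd2 rose by 2.54 on the log2 scale (limma, adjusted p = 0.0376 and 0.0356). In the labelled cortex 0 of 43 members passed, beside 0.79% of entries, although 25 members and 38.2% of entries had an unadjusted p under 0.05. The lowest adjusted p there was 0.0672 with limma.

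The split by labelled sex was tested as an interaction, an alternative added after the data were seen. The difference between Δ12/Δ12 and +/+ was not the same in libraries labelled female and male for 31 members in the labelled striatum. Of these, 3 had a higher and 28 a lower difference from +/+ in those labelled female than in those labelled male, beside 28.1% and 27.7% of entries. In the labelled cortex it was 31 members, 1 higher and 30 lower, beside 22.1% of entries in each direction. In the other 4 genotype comparisons 0 members passed in this limma test, and at most 0.0331% of entries (0.00633% for KO/+ in the labelled striatum). There, 3 and 3 members of KO/+ and 4 and 14 of Δ12/+, in striatum and cortex, had an unadjusted p under 0.05, beside 6.85%, 4.38%, 9.16% and 11.2% of entries. As labelled sex and expression-defined tissue coincide in the Δ12/Δ12 groups, they cannot be told apart there. Xist did not follow labelled sex in these groups, as given above.

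The comparison of the +/+ mice of both lines set striatum-like KO-line libraries against cortex-like Δ12-line ones, and line and expression-defined tissue cannot be told apart in it. It shares its +/+ samples with the genotype comparisons. In the labelled striatum 36 of 43 members were lower in the KO line and 4 higher, beside 37.4% and 41.9% of entries. Psmb6 had 53.3, 62.6 and 68.8 in the KO line and 299, 323 and 384 in the Δ12 line, without overlap, a log2 fold change of −2.40 with an SE of 0.08 (limma, adjusted p = 2.87e-10). Psmb5, Psma7, Psmd13 and Psmb4 followed with −2.79, −3.32, −2.23 and −2.11. The members that were higher were the activators Psme3 (0.83) and Psme4 (0.84), the scaffold Psmd1 (0.19) and the lid gene Psmd3 (0.22), of which the last pair turned to −0.13 and −0.097 with FPKM as deposited. Psmc1, Psmd2 and Psmd6 did not pass.

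In the labelled cortex 31 members were lower and 3 higher, beside 31.7% and 36.3% of entries. With quantile normalization they were 30 and 7, beside 68.3% of entries in either direction. Psma7 had 33.5, 36.8 and 37.5 in the KO line against 273, 399 and 514, a log2 fold change of −3.41 with an SE of 0.12 (limma, adjusted p = 2.84e-09). Psme3, Psme4 and Psmd3 were higher by 0.88, 0.60 and 0.25, of which Psmd3 was −0.0012 with FPKM as deposited. Of the 25 proteasome factors, 13 were higher and 10 lower in the labelled striatum, with Nfe2l1 at 1.64, Ubqln1 at 1.04 and Txnl1 at −1.29, and 11 and 9 in the labelled cortex.

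Labelled cortex was compared with labelled striatum over all 60 libraries. Of the 43 members 0 passed, and of all entries 0%, with 1 member and 2.44% of entries at an unadjusted p under 0.05 (limma). The members' log2 differences lay between −0.14 and 0.08.

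**Figure D5:**
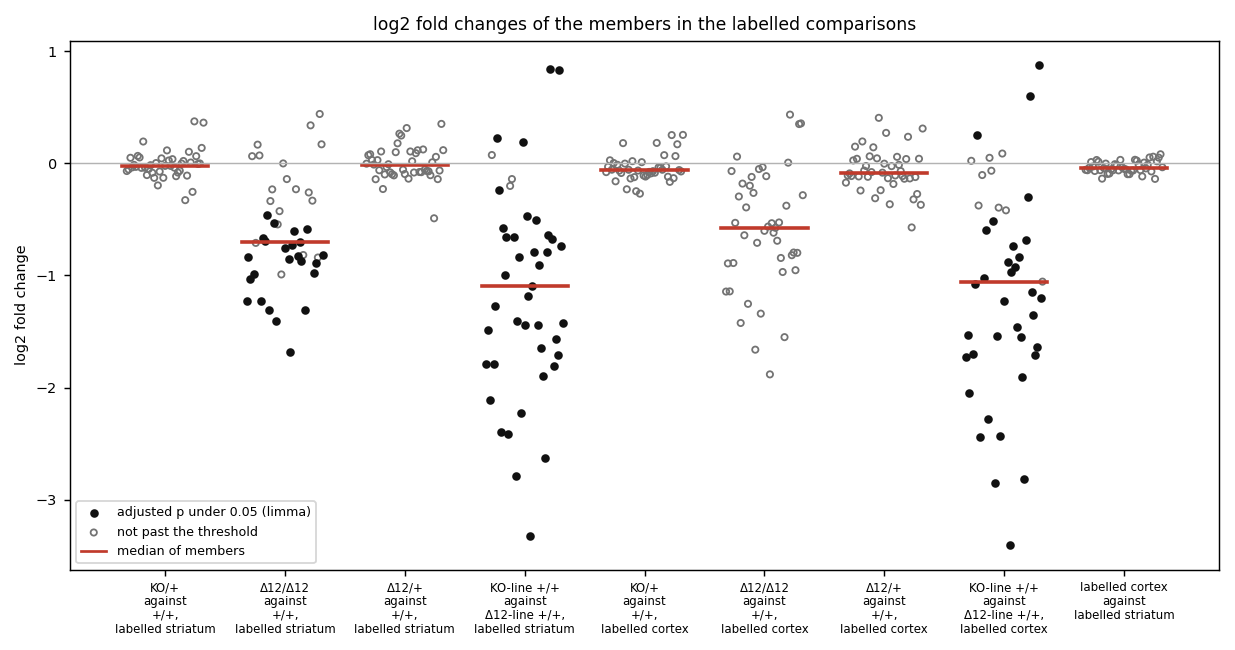
log2 fold change of each tested member in the 9 labelled comparisons, filled where the adjusted p (limma) was under 0.05, with the median as a bar. The medians are −0.70 and −0.58 for Δ12/Δ12, −1.10 and −1.06 between the lines, and between −0.08 and −0.01 in the other comparisons.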

How the data were processed

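RNA was extracted from 60 brain samples with the RNeasy kit, depleted of rRNA, made into directional libraries and sequenced on a NovaSeq6000. The authors deposited 1 table per library of FPKM, which is normalized for transcript length and library size, with confidence bounds, in the layout of Cufflinks. The submitters' processing notes name bcl2fastq 2.20, Trimmomatic 0.30, TopHat2 2.0.14, SAMtools 1.3, HTSeq 0.6.1p1 and GRCm38.p4. The model behind the study's gene comparisons is not given in the sources used here. FPKM values depend on how reads with several matches were assigned, and rRNA-depleted libraries keep unspliced RNA.

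Of 47597 entries 23 with a status other than OK were left out. Libraries were rescaled by median ratios over 13235 entries above 0 in all, with factors of 0.761 to 1.38, as the 10 highest entries held 28.3% to 92.3% of summed FPKM. No 2 libraries had identical values (0 of 1770 pairs), and the highest correlation was 0.957. As the tables hold no counts, limma 3.58.1 (R 4.3.3) with a trended prior was run on log2(rescaled FPKM + 0.5), so that fold changes of low genes are understated. Entries with a mean of at least 0.5 were tested, with labelled sex as a covariate, and adjusted p under 0.05 by Benjamini-Hochberg was called. The code was tested on simulated data. The depth of the libraries is unknown, and the authors' confidence interval stands for the precision of a value.

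The members and lists were chosen with earlier results of these data known. Genes were named by a rule: catalytic, inducible and activator genes, Psmd4, Psmd14, Psmc3ip and Psma8, the 3 members with the largest differences in each direction, the highest and lowest of each particle, and up to 5 called members per comparison. Differences of the remaining members are given beside them. Other lists name up to 3 called genes. Alternatives were FPKM as deposited, quantile normalization, a pseudocount of 0.1, no filter, no sex covariate, a replicate block, all 30 libraries of a labelled tissue and expression-defined tissue as a covariate.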

Additional observations from a re-analysis of the deposited data

Results flagged for a closer look

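Several summed levels and single genes were each tested in every labelled group of 6 libraries, 70 tests in all. In 5 of the 70 tests 1 library lay apart from the rest by Dixon's criterion, where chance gives about 1 in 20 in groups of like libraries. The tests share libraries, and both Δ12/Δ12 groups held cortex-like and striatum-like libraries. The sum of Psmb8, Psmb9 and Psmb10 was 23.4 in male 3 of the Δ12/+ group of the Δ12 line, labelled striatum. The same library had the highest Drd2 (15.9) and the lowest Slc17a7 (104) and short-minus-long value (0.413) of the 30 cortex-like libraries, and their part in its sum was not tested. Psme2 was 18.6 in cortex Δ12-line Δ12/Δ12 female 2, where its copy Psme2b was 7.61 and so within the range of the striatum-like libraries. Without that library 0 members passed in the labelled cortex, as with it, beside 0.077% of entries. Psme2b was 13.5 in cortex Δ12-line Δ12/+ female 1. Psme3 was 21.0 in cortex Δ12-line +/+ male 1 and 16.1 in striatum Δ12-line +/+ male 2, above the other 5 libraries of each group.

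The difference between Δ12/Δ12 and +/+ differed between the labelled sexes for 31 members in the labelled striatum and 31 in the labelled cortex (limma, interaction term). The values here are the log2 difference of Δ12/Δ12 from +/+ under the female label minus that under the male label. In the striatum the interaction was −2.77 for Psmb5, −2.52 for Psmb6 and −1.26 for Psmb7, the catalytic core genes, and −2.41 for Psmb10 and −0.86 for Psmb8, the inducible ones. It was −1.13 for the ubiquitin receptor Psmd4, −0.83 for the deubiquitinase Psmd14, −1.73 for Psme1 and −1.52 for Psme2, and 1.08 for Psme3 and 0.77 for Psme4. In the cortex it was −2.87 for Psmb5, −2.57 for Psmb6, −1.63 for Psmb7, −3.07 for Psmb10, −1.61 for Psmd4, −1.30 for Psmd14, −1.48 for Psme1 and 1.5 for Psme3. In both tissues the +/+ libraries of both labelled sexes and the Δ12/Δ12 libraries labelled male were cortex-like. Those of Δ12/Δ12 labelled female were striatum-like, so that labelled sex and expression-defined tissue cannot be told apart.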

How the results depend on the processing

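The counts of members called in either direction between the lines stayed within 1.5 times under the alternatives run, and those in Δ12/+ and between labelled tissues at 0. The few members called higher in the KO line, 4 in the striatum and 3 in the cortex, ranged from 2 to 6 and from 1 to 7. For Δ12/Δ12 in the labelled striatum, the 24 members became 9 without a filter on low values, beside 5.34% of entries. They became 0 without the sex covariate (0.0582% of entries), with the replicate block (0.0323%) and with expression-defined tissue as a covariate (0.123%). With cortex-like libraries alone they were also 0, beside 0.0863% of entries. That alternative was added after the data were seen and had 3 Δ12/Δ12 libraries. In the labelled cortex it was 28 members in place of 0 when all 30 libraries shared the spread, beside 49.6% of entries. For KO/+ in the labelled striatum, 2 members passed with quantile normalization in place of 0, beside 7.58% of entries. With a pseudocount of 0.1 and without the sex covariate 1 member each passed, beside 8.27% and 8.17% of entries. In the labelled cortex 1 passed with FPKM as deposited in place of 0, beside 0.929% of entries. Without the library whose title and genotype label name different lines (KO/+ female 3), 0 passed in the striatum, beside 5.83% of entries. Signs turned for Psmb6 in Δ12/Δ12 striatum (0.028 with tissue as a covariate or with cortex-like libraries alone), for Psmc3 in Δ12/+ striatum (0.081 with quantile normalization), and, with FPKM as deposited, in the line comparisons for Psmd1 (−0.13) and Psmd3 (−0.097) in striatum and Psmd3 (−0.0012) in cortex. Between library sets, signs turned with FPKM as deposited for Psmd1 (0.23), Psmd2 (0.31) and Psmd3 (0.14), with quantile normalization for Psmc1 (−0.39) and Psmd6 (−0.25), and with length-class deviations taken off for Psmc1 (−0.33), Psmd1 (0.22), Psmd2 (0.11), Psmd6 (−0.58), Psma4 (−0.15), Psmb2 (−0.092), Psme2 (−0.25) and Psmc3ip (−0.46). With length-class deviations taken off, 14 members in place of 25 did not overlap, beside 17.4% of entries higher in cortex-like libraries. The core's correlation in cortex-like libraries was then 0.17. With FPKM as deposited the correlation in striatum-like libraries was 0.71 in the core and 0.76 in base and lid. The causes were not tested. Over all alternatives, 463 values of single genes kept their direction and side of the threshold or stayed within their SD. These include 43 by the Drd2 definition and 43 without a filter, between library sets, which could not change. Of the other values, 61 lost the threshold, 4 passed it newly, 89 untested ones moved beyond their SD and 19 turned sign. Same-numbered libraries were checked for pairing. Of 6 such pairs 0 had correlated deviations over 0.1 in any group comparison, and 3 of 30 between labelled tissues. As these are deviations from means of 3 libraries under labels that expression did not match, the check cannot decide whether such libraries share a mouse. With the replicate block, the line comparisons gave 39 and 32 members in place of 40 and 34, beside 77.9% and 66% of entries. The number of libraries per group and the unknown depth limit the precision of Psma5, Psmb8, Psmb9 and Psme2.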
